A study of Arabidopsis thaliana with 16 samples.

Results

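Among the genes measured here were a few for proteins that handle RNA inside chloroplasts and mitochondria: the organelle transcript processing genes OTP70 and OTP85, the mTERF gene AT5G55580 (mTERF9), and AT4G14050. Members were chosen by searching for words such as pentatricopeptide, mTERF, organelle transcript processing, RNA-binding, RNA helicase and ribonuclease in the symbols and synonyms of the 692 probes that name 1 gene, of 3439 probes in all. The gene tables used here give symbols and synonyms but no separate description, so the search reached only genes whose name holds one of the words. It found 5 members: 2 by organelle transcript processing, 1 by mTERF, AT4G14050 because the rule names it, and LAS (LATERAL SUPPRESSOR, a GRAS-family regulator of shoot branching) only because the letters ppr stand in "Suppressor". LAS is no pentatricopeptide gene and is described apart. The search terms pentatricopeptide, RNA-binding, RNA helicase and ribonuclease each matched 0 of these names, so the values below cover organelle transcript processing and mTERF genes, not RNA-binding proteins at large.

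Chloroplast and mitochondrial genomes are read as long transcripts that must be cut, spliced, edited and stabilised by proteins imported from the cytosol. Pentatricopeptide repeat (PPR) proteins, a very large family in plants, each bind particular RNA sequences in an organelle and direct such a step. mTERF proteins, named after a mitochondrial transcription termination factor of animals, are a smaller family that also acts on organelle nucleic acids. Plastocyanin is the copper protein that carries electrons from the cytochrome b6f complex to photosystem I in the chloroplast.

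Total RNA of Arabidopsis thaliana was compared on expression arrays between the wild type (WT, 8 arrays) and pete1 (8 arrays), a mutant without 1 of its plastocyanin isoforms. All plants were of ecotype Columbia 0 and grew on soil, though among the sample titles only those of pete1 name soil. Age, organ and mutant allele are not in the labels. Nor is it stated which arrays are separate plants, and the spread on which the p-values rest may thus be technical. No probe with 1 gene names a plastocyanin gene, so the mutated gene itself was not checked.

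The deposited values are linear intensities with a highest value of 100 after rounding. In pete1, replicates 1 to 4 stood apart as dim, with array medians from 0.0524 to 0.0856 and 17.9% to 24.6% of values at 0, against 0.129 to 0.205 and 13.2% to 18.4% on the other 12 arrays. Values were therefore quantile-normalized between arrays, and intensities under 0.0581 were set to that value, called the floor below. Arrays numbered 1 and 2, 3 and 4, 5 and 6, and 7 and 8 deviated together, pair by pair, from their group mean (median r = 0.511 across probes, against -0.313 for other arrays of a group), so each such pair was averaged and limma compared 4 pair averages with 4. Probes above the floor on fewer than 4 of 16 arrays were not tested, which left 2882. Of the green-tissue markers PSAN, PSBY and LHB1B2, 3 of 3 were above the floor on all 16 arrays. Like OTP70 below, all 3 had a higher mean in pete1, and 0 passed the test over pair averages: PSAN had a log2 difference of 0.56, LHB1B2 one of 1.16 and PSBY one of 1.13 (limma adjusted p = 0.644, 0.587 and 0.287). A difference above 0 was seen in 1444 of all 2882 probes tested. The pair averages of PSBY did not overlap between the groups, as for 4.65% of probes tested with pete1 higher. Its single arrays did overlap, with normalized intensities up to 2.85 in WT and from 2.60 in pete1. With 16 separate arrays PSBY passed (limma adjusted p = 0.0308), where 13.7% of all probes passed, but that fit counts consecutive arrays as independent. The part of these 3 markers in the results below was not tested. They are the 3 of 14 listed green-tissue markers that a probe with 1 gene names, and of 31 listed markers of root, flower, seed, vascular and guard cells 0 are so named.

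OTP70 (AT4G25270), a pentatricopeptide protein of the chloroplast known for its part in splicing the rpoC1 transcript, which encodes a subunit of the plastid RNA polymerase, had the largest difference of the members. Its level was higher in pete1, by 1.499 on the log2 scale or 2.83-fold (95% interval 1.68-fold to 4.77-fold), but the difference did not pass the test across all probes. Its normalized intensities on WT replicates 1 to 8 were 0.133, 0.0632, 0.129, 0.0999, 0.0960, 0.0945, 0.128 and 0.166. On pete1 replicates 1 to 8 they were 0.375, 0.409, 0.368, 0.381, 0.285, 0.249, 0.226 and 0.248. The lowest pete1 array lay above the highest WT array, so the groups did not overlap, and no array lay at the floor. Such a gap between arrays with pete1 higher was found in 1.46% of all probes tested, and one between pair averages in 4.65%.

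On the log2 scale the OTP70 pair averages were -3.45, -3.14, -3.39 and -2.78 in WT and -1.35, -1.42, -1.91 and -2.08 in pete1. The WT mean was -3.19 ± 0.31 and the pete1 mean -1.69 ± 0.36 (SD, n = 4 pair averages). Arrays of 1 average differed by a median of 0.17 for this gene, and by 1.08 at most, between WT replicates 1 and 2. The SE of the difference was 0.34 and its limma adjusted p was 0.0783. By its unadjusted limma p of 0.0010 it ranked 37th of 2882 probes tested. The exact permutation test of 4 averages against 4, two-sided, gave p = 0.0286 for OTP70 alone, which is the smallest p that it can give. A larger absolute change was seen in 4.13% of probes tested.

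**Figure D1:**
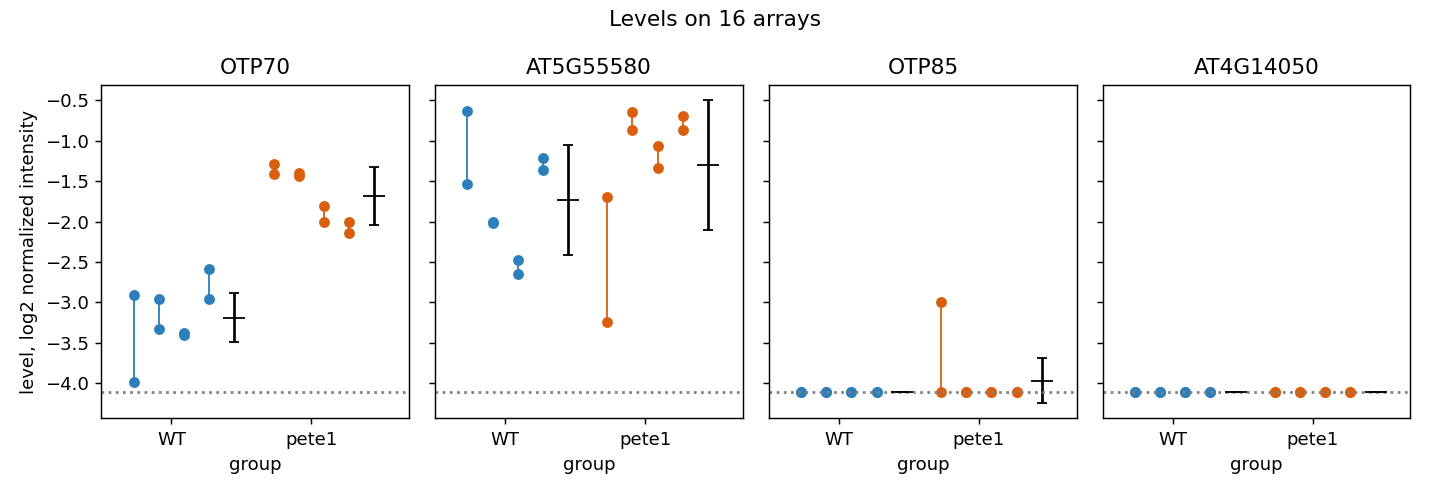
Level (log2 normalized intensity) of OTP70, AT5G55580, OTP85 and AT4G14050 on each of 16 arrays. Points are arrays, lines join the arrays with consecutive replicate numbers, black bars are the mean ± SD of 4 pair averages, and the dotted line is the floor at -4.10. The groups are apart for OTP70 and overlap for AT5G55580, while OTP85 leaves the floor on 1 array and AT4G14050 on none.

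OTP70 passed the test in 6 of 26 alternatives, with a log2 difference of 1.49 to 1.499 in those 6. With all 16 arrays as separate samples its limma adjusted p was 0.00032, where 13.7% of all probes passed, and with consecutive arrays as a random block it was 0.0241, where 2.91% passed. It also passed with array weights (adjusted p = 0.0128, 9.37% of probes passing) and when the dim probes were kept in the fit (adjusted p = 0.0460, 1.02% passing). With a replicate block over 16 arrays its adjusted p was 0.0017, where 592 of 2882 probes passed. With 16 arrays, the floor of each array and no filter it was 0.0012, where 464 of 3439 passed. No other alternative passed as many probes. The fits with 16 separate arrays and the replicate block over 16 arrays count consecutive arrays as independent. These arrays deviate together, so passing there is not sound evidence. It did not pass with the number of the pair as a replicate block (adjusted p = 0.0577, 2.01% passing). With the deposited scale, where the median probe was lower in pete1 by a log2 change of -0.38, OTP70 had a log2 change of 1.07, or 1.45 relative to that median (adjusted p = 0.379). Without the dim pete1 replicates 1 to 4, an alternative chosen after seeing the data that leaves 2 pete1 averages, the difference was 1.16 with a 95% interval from 0.18 to 2.14 (adjusted p = 0.301). The deposited intensities themselves overlapped: they ran from 0.0882 to 0.214 in WT (median 0.110) and from 0.158 to 0.361 in pete1 (median 0.274).

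**Figure D2:**
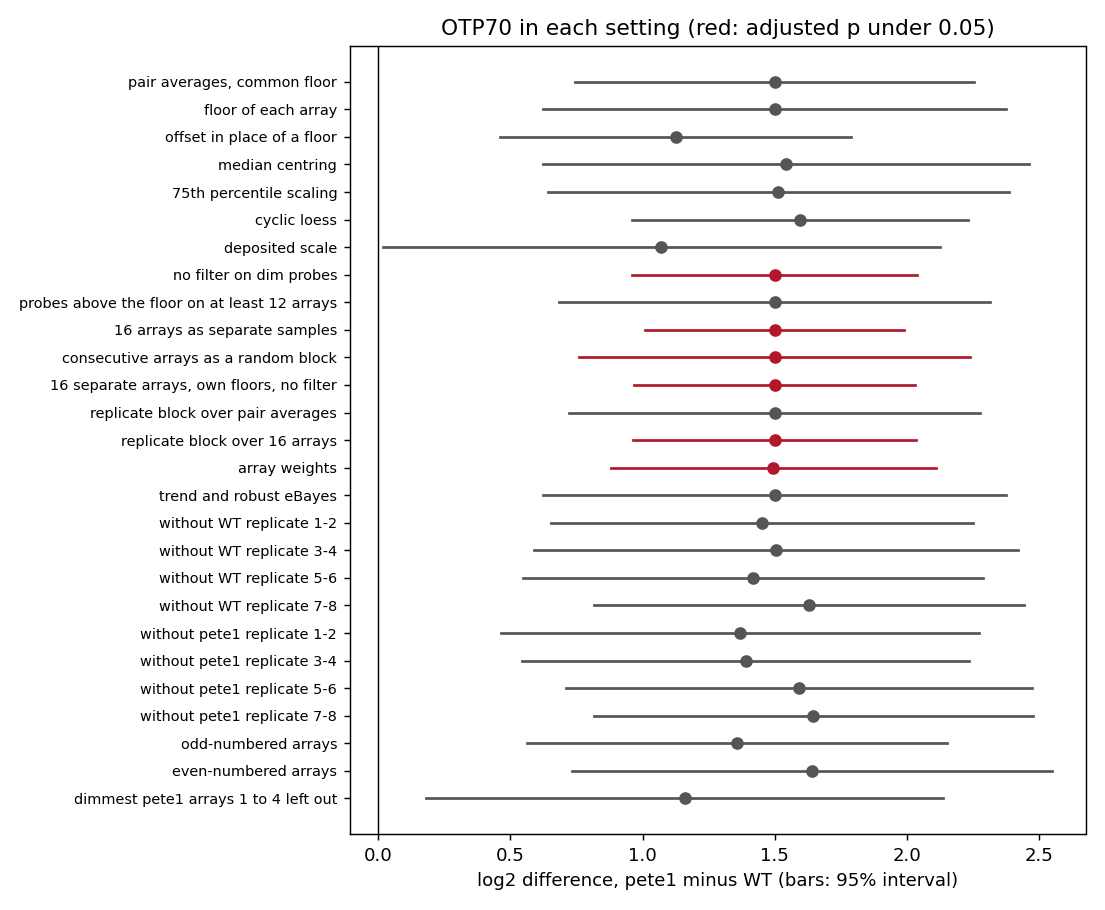
The log2 difference of OTP70, pete1 minus WT, with its 95% interval under the reported setting (top) and 26 alternatives, red where the limma adjusted p passes 0.05. All differences lie above 0, from 1.07 to 1.65, and 6 of 26 alternatives pass.

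AT5G55580, listed as mTERF9, belongs to the mTERF family and is known as a chloroplast protein needed for normal plastid ribosomes. Its levels overlapped between the groups. Normalized intensity ran from 0.160 to 0.645 in WT, with a median of 0.297, and from 0.105 to 0.641 in pete1, with a median of 0.512. All 16 arrays were above the floor. The log2 pair averages were -1.08, -2.01, -2.56 and -1.29 in WT and -2.47, -0.76, -1.20 and -0.78 in pete1. The lowest average was that of replicates 5 and 6 in WT and that of replicates 1 and 2 in pete1.

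The group means of AT5G55580 were -1.74 ± 0.68 in WT and -1.30 ± 0.80 in pete1 (SD, n = 4), a log2 difference of 0.43 with a 95% interval from -0.62 to 1.49 (limma adjusted p = 0.720; exact permutation p = 0.429, two-sided). This interval holds both a lower and a 2.80-fold higher level in pete1, so no direction is shown. Within the same average, pete1 replicates 1 and 2 differed by 1.55, more than the difference between the groups. Without these arrays the log2 difference was 0.81 (adjusted p = 0.475), and without WT replicates 5 and 6 it was 0.15 (adjusted p = 0.910). On the deposited scale it was 0.0067, or 0.39 relative to the median probe.

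OTP85 (AT2G02980), a pentatricopeptide protein of the chloroplast known for editing of an ndhD transcript, was close to unmeasurable. Its deposited value was listed at 0 on 7 of 8 WT and 4 of 8 pete1 arrays. A single array, pete1 replicate 2, lay above the floor, with a normalized intensity of 0.126, while replicate 1, which deviates with it across probes, was listed at 0. OTP85 was therefore not tested and no fold is given. AT4G14050, for which the gene tables used here give no description, was listed at 0 on 7 of 8 WT and 8 of 8 pete1 arrays. Its 1 value above 0, on WT replicate 1, was 0.0195 as deposited and under the floor after normalization, so AT4G14050 has no measurable level in either group.

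LAS (AT1G55580) overlapped between the groups as well. Its normalized intensity ran from 0.107 to 0.572 in WT (median 0.320) and from 0.163 to 0.495 in pete1 (median 0.200). The means were -1.79 ± 0.88 and -2.11 ± 0.23 on the log2 scale (SD, n = 4), a difference of -0.32 with a 95% interval from -1.29 to 0.64 (limma adjusted p = 0.773; exact permutation p = 0.543, two-sided). The WT averages spread most, from -0.86 on replicates 3 and 4 to -2.98 on replicates 7 and 8. Without the latter the difference was -0.72 and without the former -0.016, neither passing the test (adjusted p = 0.394 and 0.992).

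Of the 5 members 3 were tested and 0 passed, in a comparison in which 0.659% of all probes passed (19 of 2882, 6 higher and 13 lower in pete1). Of the 3, 2 had a log2 difference above 0 and 1, LAS, below. Their median difference of 0.43 is the value of AT5G55580 alone, beside a median of 0.0031 for all probes tested. With so few members, and LAS counted among them, neither the counts nor the median describes the PPR or mTERF families. With the pair number as a block 58 probes passed, 15 higher and 43 lower, and 0 members.

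**Figure D3:**
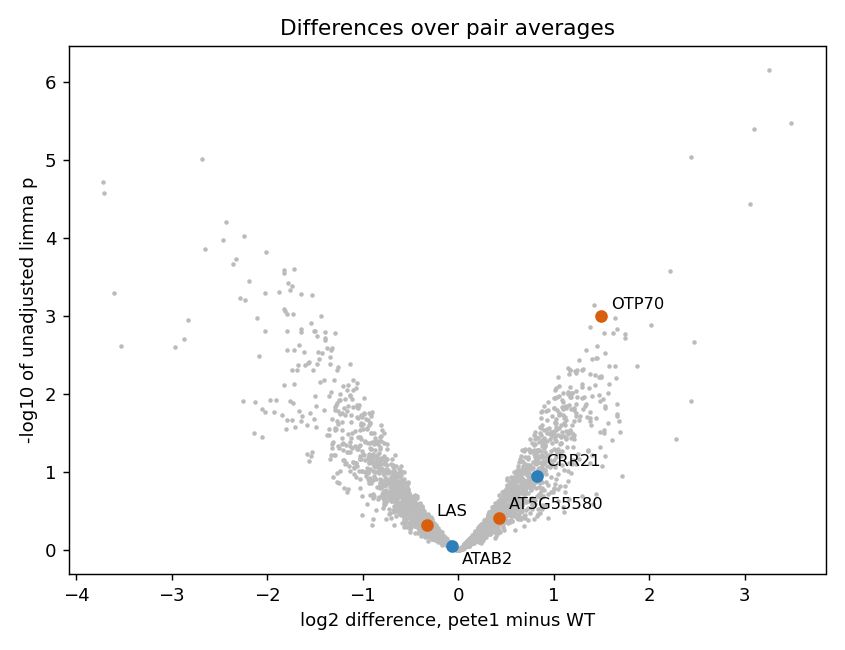
The log2 difference (pete1 minus WT, horizontal) against -log10 of the unadjusted limma p (vertical) for 2882 probes in grey, the 3 tested members in orange and the fixed-list genes CRR21 and ATAB2 in blue. OTP70 lies on the upper right edge of the cloud at 1.499, and the other 4 lie in its lower part.

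A list of 166 genes known for organelle transcription, RNA processing and organelle translation was searched by symbol or synonym to set the members among related genes. Of these, 4 are named by a probe with 1 gene, of which AT5G55580 and OTP85 are members. The other 2 are CRR21 and ATAB2, and 0 of the 2 passed the test in either direction. CRR21 (AT5G55740), a pentatricopeptide protein that edits an ndhD transcript in the chloroplast, had normalized intensities from 0 to 0.394 in WT (median 0.130) and from 0.101 to 0.400 in pete1 (median 0.296). Its means were -2.77 ± 0.93 and -1.94 ± 0.48 (log2, SD, n = 4), a difference of 0.83 with a 95% interval from -0.22 to 1.87 (limma adjusted p = 0.452; exact permutation p = 0.200, two-sided). The groups overlapped: WT replicates 7 and 8 averaged -1.51, above the pete1 mean. Leaving out 1 pair of arrays took the CRR21 difference from 0.50 (without WT replicates 5 and 6) to 1.24 (without WT replicates 7 and 8), and on the deposited scale it was 0.42.

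ATAB2 (AT3G08010), which binds RNA and is known for promoting translation of photosystem subunits in the chloroplast, was above the floor on 3 of 8 WT and 5 of 8 pete1 arrays. Its means were -3.64 ± 0.85 and -3.70 ± 0.24 (log2, SD, n = 4), and its difference of -0.060 has a 95% interval from -1.02 to 0.90 (limma adjusted p = 0.959). Much of its range lies at the floor, and its direction turned with the floor and the arrays used.

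Same-numbered averages of the groups also deviated together (r = 0.112 to 0.486 for the 4 numbers), so the differences were set out by number. OTP70 was higher in pete1 for 4 of 4 numbers, by 2.09, 1.72, 1.48 and 0.70 on the log2 scale after normalization. Its pair averages do not overlap, so any matching of numbers would give 4 of 4, and this count adds no evidence. The deposited intensities gave 0.58, 1.21, 1.73 and 0.77, so the difference was smaller before normalization for the dim pete1 replicates 1 to 4 and larger for replicates 5 to 8. CRR21 was higher for 4 of 4 as well, by 1.05, 0.26, 1.89 and 0.10. So were the markers PSAN and PSBY, while LHB1B2 was higher for 3 of 4. The share of all probes higher for 4 of 4 was not counted. AT5G55580 was higher for 3 of 4, with differences of -1.39, 1.25, 1.36 and 0.51.

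**Figure D4:**
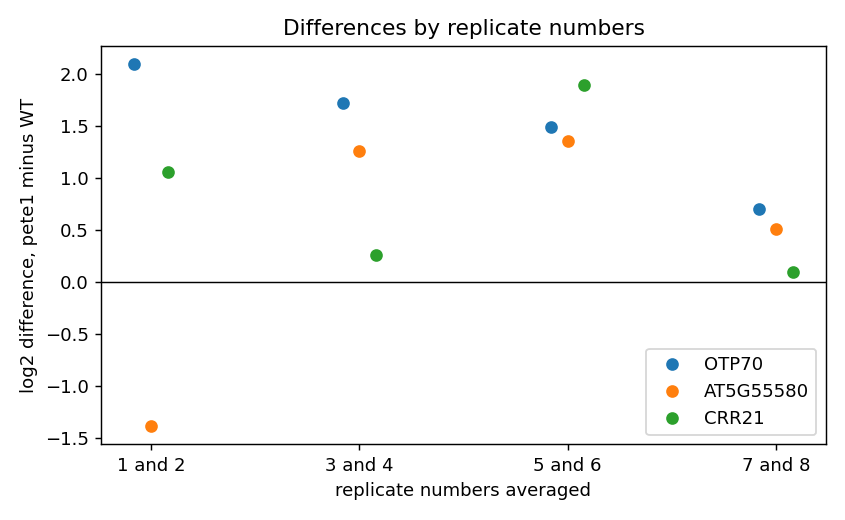
The log2 difference, pete1 minus WT, of OTP70, AT5G55580 and CRR21 for each pair of consecutive replicate numbers (horizontal). Points of OTP70 and CRR21 lie above 0 for all 4 numbers, and AT5G55580 lies at -1.39 for replicates 1 and 2.

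The probes with 1 gene whose levels over the 8 averages were most like those of OTP70, of 581 compared, were AT2G27680 (Pearson r = 0.960), AT3G02030 (r = 0.950) and CML41 (r = 0.893). These values describe 8 averages that share 2 groups and one normalization, and carry no test. The log2 differences of these genes were 3.26, 0.90 and 1.42. They were chosen for likeness to OTP70, whose groups do not overlap, so their higher levels in pete1 follow from the choice and are no separate evidence. AT2G27680 was at the floor in all WT averages, so it met the filter through pete1 arrays alone and its fitted difference depends on the floor. AT3G02030 had a WT mean of -3.95, close to the floor of -4.10, so its difference may depend on the floor too.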

How the data were processed

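The authors deposited 1 table of spot intensity, 3439 probes by 16 arrays, with a highest value of 100 after rounding. What scanning, background correction, scaling and genome build they used is not given in the sources used here. Of the probes, 692 name 1 gene, 870 several and 1877 none, and 690 of the 692 matched the RefSeq TAIR10.1 gene table, used for names alone. No background signal, slide or scan information came with the table, so background correction and a slide block were not tried.

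Groups and replicate numbers come from the sample titles. Quantile normalization and tests used limma 3.58.1 in R 4.3.3. The floor is the highest of the arrays' 5th percentiles of positive values (28.4% of values lie at or under it). Log2 was taken, consecutive arrays were averaged, and lmFit and eBayes compared the groups, two-sided, with Benjamini-Hochberg adjustment over all 2882 probes tested at a threshold of 0.05. A further 557 probes were not tested. Deviations from the group mean correlated best with those of the consecutive array for 16 of 16 arrays. Same-numbered WT and pete1 arrays deviated together with r from 0.0622 to 0.441, over 0.1 for 7 of 8 numbers, and pair averages over 0.1 for 4 of 4. All 8 pair averages correlated best with the average of their own number in the other group. The labels do not state any pairing, and the reported fit has no block for the number.

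The fit was tested on 1 simulated data set of 2882 probes, 200 of them changed, with consecutive arrays correlated at 0.704. Over pair averages 181 probes were called, 6.63% of them falsely, with 75% of changes of 2 and 94% of changes of 3 (log2) recovered. With 16 separate arrays 312 were called, 38.8% of them falsely. The correlation of 0.704 was estimated from these data, so the many false calls with 16 separate arrays follow from that setting. The simulation has no floor and no correlation between same-numbered arrays of the groups. It holds no changes other than 2 and 3, thus none of the size seen for OTP70.

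The members, lists and tests were chosen with earlier results of these data known. Named genes are all members and all list genes on the array, and the 3 probes most like OTP70. Alternatives were other floors, normalizations, filters, blocks, weights and sets of arrays, of which leaving out pete1 replicates 1 to 4 was chosen after seeing the data. The number of arrays limits the precision.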

Additional observations from a re-analysis of the deposited data

Results flagged for a closer look

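For the 5 tested genes described above (3 members and 2 list genes), each group's 8 log2 levels were examined for a value apart from the other 7. This was so in 1 of 10 groups. About 1 in 20 would be flagged by chance if the 8 values were independent, but consecutive arrays deviate together, so that rate need not hold here. AT5G55580 had a log2 level of -3.24 on pete1 replicate 2, with the next value at -1.70 on replicate 1, the array that deviates with it across probes. The gap is 59.5% of the range of the group.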

How the results depend on the processing

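All alternatives were planned except leaving out pete1 replicates 1 to 4. The difference of OTP70 stayed above 0 in 26 of 26, from 1.07 to 1.65, and passed in 6: it was 1.499 with no filter on dim probes, with 16 separate arrays, with a random block, with 16 arrays, the floor of each array and no filter together, and with a replicate block over 16 arrays, and 1.49 with array weights. The member count was 1 in these 6 (35 to 592 probes called) and 0 in the other 20. Leaving out 1 pair gave OTP70 1.37 to 1.65 (adjusted p = 0.0692 to 0.204). The alternatives reuse the same arrays, whose OTP70 levels do not overlap after quantile normalization, so their shared direction adds no evidence. The 19 probes called became 35 with no filter (17 higher, 18 lower), 396 with 16 arrays (203 and 193), 84 with a random block (29 and 55), 464 with 16 arrays, the floor of each array and no filter (283 and 181), 58 with the replicate block over pair averages (15 and 43), 592 with it over 16 arrays (294 and 298), 270 with array weights (121 and 149) and 11 on odd-numbered arrays (5 and 6). Leaving out any 1 pair moved the 19 by over 1.5 times: to 32 (12 higher, 20 lower) and 34 (7 and 27) without WT replicates 1 and 2 or 7 and 8. It was 9 (5 and 4) without WT replicates 3 and 4 or pete1 replicates 1 and 2 or 3 and 4, 8 without WT (5 and 3) or pete1 (4 and 4) replicates 5 and 6, and 12 (6 and 6) without pete1 replicates 7 and 8, so the excess of lower calls rests on which pairs are used. Without pete1 replicates 1 to 4 it was 7 (4 and 3). The split was 6 higher and 8 lower with the floor of each array and 8 and 10 with median centring. AT5G55580, LAS and CRR21 kept their direction and passed in 0 of 26. CRR21 ran from 0.42 to 1.24. The median of the tested members, the value of AT5G55580, ran from 0.0067 to 0.81, within its spread. ATAB2 was 0.24 with the floor of each array (over averages and over 16 arrays), 0.20 with array weights, 0.049 on odd-numbered arrays, 0.14 without pete1 replicates 1 to 4, and 0.37 and 0.16 without WT replicates 7 and 8 or pete1 replicates 1 and 2; leaving out 1 pair took it from -0.22 to 0.37. The strict filter left ATAB2 untested, and with cyclic loess the filter removed only 5 probes. The cause was not tested, except that 16 arrays count more samples. Values at 0 limit what OTP85, AT4G14050 and ATAB2 can show.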
